A study of Homo sapiens with 48 samples.

Results

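The enzymes that make serine and that pass its one-carbon units through folate were read in AMO1 multiple myeloma cells after knockdown of IRE1 or of XBP1. They comprised 10 of the 58302 genes in the count table, taken by their symbols: PHGDH, PSAT1, PSPH, SHMT1, SHMT2, MTHFD1, MTHFD2, MTHFD1L, ALDH1L2 and ASNS. Each of the 10 had counts in every library and passed the filter on low counts in every fit. No value of these data entered the choice of the genes by symbol, but the group was proposed with earlier results of the same libraries known.

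AMO1 is an established human line from a plasmacytoma, a tumor of plasma cells. The lines carried short hairpin RNAs (shRNAs) that doxycycline (Dox) switches on, directed against ERN1, the gene of the ER-stress sensor IRE1 (shIRE1 clones 1 and 3), or against XBP1, whose mRNA IRE1 splices (shXBP1 clones 1 and 18). All groups had the shRNA insert, and the 0.2 µg/ml Dox was given for 24, 48 or 72 h, or not at all (0 h). Each clone and time point had 3 separate flasks, which gave 48 libraries in 16 groups. No library with a non-targeting shRNA was analysed here, so that the reference for each clone was its untreated libraries. Within a clone, Dox and the shRNA cannot be told apart. Each shRNA was read in 2 clones, and a property of a single clone cannot be told apart from its shRNA except through the other clone.

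Serine is made from an intermediate of glycolysis in a short chain: PHGDH oxidises it, PSAT1 adds the amino group and PSPH removes the phosphate. SHMT1 in the cytosol and SHMT2 in mitochondria split serine into glycine and a one-carbon unit carried by folate. MTHFD2 and MTHFD1L carry that unit through the mitochondrial steps to formate, MTHFD1 holds the matching activities in the cytosol, and ALDH1L2 oxidises mitochondrial formyl-folate to carbon dioxide with formation of NADPH. ASNS makes asparagine and belongs to the same amino acid response, in which the transcription factor ATF4 is a known activator of many of these genes; plasma cells, which secrete much protein, draw heavily on amino acid supply.

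Of the 48 libraries, 7 went against the clone named on their labels. They were found at 6 marker genes that differed by at least 2 on the log2 scale between the shIRE1 clones at both 0 h and 24 h. The 3 libraries labelled shIRE1 clone 1, 72 h lay nearer to clone 3 at 6 of 6 genes. The 3 labelled shIRE1 clone 3, 48 h lay nearer to clone 1 at 6 of 6. LAMB4, a laminin chain, had 37 to 46 counts in clone 1 at 0 h, 1167 to 1349 at 24 h and 1131 to 1742 at 48 h, but 0 in the libraries labelled clone 1, 72 h. In clone 3 it had 0 counts at 0, 24 and 72 h and 1505 to 2051 in the libraries labelled 48 h. TLR7 went the other way, with 39 to 95 counts in clone 1 up to 48 h and 600 to 683 in the libraries labelled clone 1, 72 h. It had 388 to 992 in clone 3 at 0, 24 and 72 h and 86 to 96 in those labelled 48 h. The library labelled shXBP1 clone 18, 72 h, replicate 3 was nearer to shXBP1 clone 1 at 117 of 117 markers of that pair of clones. The labels were kept throughout. Every value given for shIRE1 clone 1 at 72 h, shIRE1 clone 3 at 48 h or shXBP1 clone 18 at 72 h therefore includes these libraries unless it is said to leave them out, and so do statements over all times of those clones. Comparisons free of them are those of shIRE1 clone 1 at 24 and 48 h, of shIRE1 clone 3 at 24 and 72 h, and of shXBP1 clone 1, and for shXBP1 clone 18 the fit was repeated without the library. The 0 h and 24 h libraries served to choose the shIRE1 markers, so that their own agreement with the labels was largely set by that choice. The library labelled shIRE1 clone 3, 24 h, replicate 1 had r = 0.9909 with its own group and 0.9925 with clone 1 at 24 h.

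**Figure D1:**
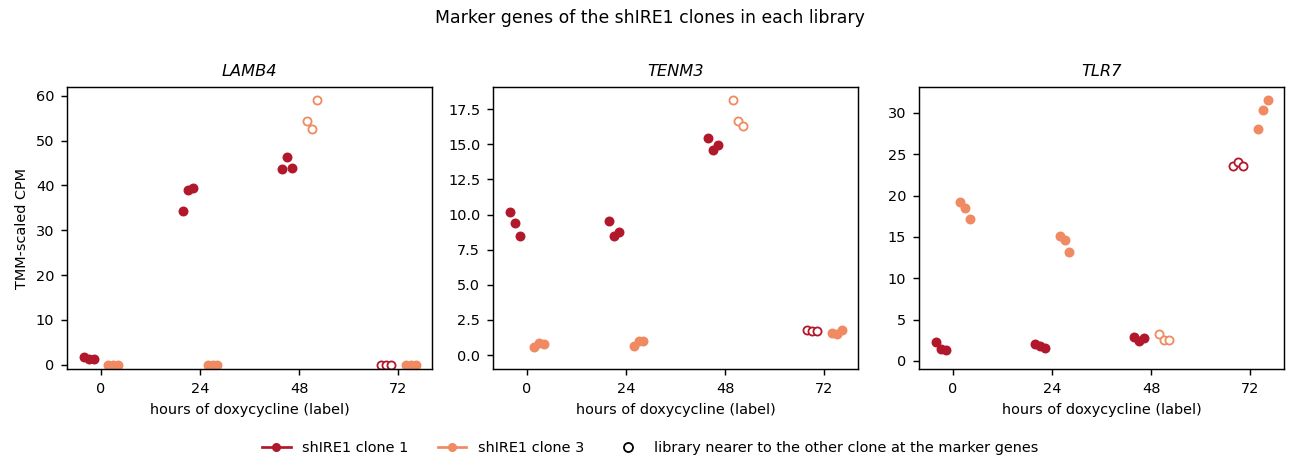
CPM (counts scaled to library size, after TMM scaling) of 3 of the 6 marker genes in each library of the shIRE1 clones, against the hours of Dox given by the labels. Open symbols are the 6 libraries that lie nearer to the other clone; LAMB4 is at 0 in all 3 libraries labelled clone 1, 72 h and above 50 CPM in all 3 labelled clone 3, 48 h.

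Library totals ran from 19177855 to 40767202 counts, and all 10 plasma cell markers were found, with SDC1 at no less than 5130 CPM in any library. Summed markers of T and NK cells reached 18.4 CPM, mostly from CD3E, and those of myeloid, mature B, and fibroblast or epithelial cells reached 0.832, 7.32 and 5.24 CPM, with DCN and LUM at 0 throughout. ERN1 was at 149.8 to 154 CPM in shIRE1 clone 1 at 0 h and at 92.5 to 103 at 48 h (log2 fold change -0.66 ± 0.040 SE). Clone 3 had ERN1 at 421 to 451 at 0 h and 122 to 128 at 72 h (-1.82 ± 0.049). The log2 fold change of XBP1 at 72 h was -2.32 ± 0.071 SE in shXBP1 clone 1 and -2.16 ± 0.086 SE, as labelled, in clone 18. The drop in ERN1 was larger in value in shIRE1 clone 3, which began with more ERN1 mRNA. The mRNA of the other target moved too. XBP1 fell from 24 to 48 h in shIRE1 clone 1 (-0.56 ± 0.037 SE, adjusted p = 1.96e-09 by edgeR). The response of ERN1 at 24 h differed between shXBP1 clones 1 and 18 (0.83 ± 0.064 SE, adjusted p = 2.28e-12 by edgeR).

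The sequences upstream of the members are shown because most of the members changed in the same direction in the shIRE1 clones. The RefSeq promoter table (GRCh38.p14; 250 bases before to 50 after each start) held 7 of the 10 members; PSPH, SHMT2 and ALDH1L2 were not matched. Motifs were searched on both strands, and those called the E-box and the XBP1 core can overlap. The CCAAT box was found in 6 of 7 members, with 3 copies in the 120 bases before the start of PSAT1, against 39.7% of all 27305 genes in the table. TGATGNAA, the core of sites for ATF4 with C/EBP factors, was found in MTHFD1L and ASNS, against 4.46% of all genes. The E-box, CACGTG, was found in MTHFD1 and MTHFD1L, against 8.77%. A core of sites for XBP1 and ATF6, TGACGTG, was found in 0 of the 7 windows, against 2.4% of all genes. A core of interferon response elements bound by IRF factors, GAAANNGAA, was found in 0 of 7, against 9.86%. These are matches of letters in a window and were not tested as sites. The RefSeq starts used here can lie inside the gene spans of GENCODE given with each gene. In the sequences, 5′ to 3′ on the strand of the gene, capitals mark the motif.
PSAT1 chr9:78297005-78297124, plus strand: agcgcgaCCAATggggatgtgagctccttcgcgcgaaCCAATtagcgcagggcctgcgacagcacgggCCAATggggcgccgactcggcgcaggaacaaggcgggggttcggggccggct
PHGDH chr1:119711851-119711880, plus strand: gagtatttccgtCCAATcaaaaggagactg
SHMT1 chr17:18363609-18363638, minus strand: gctgcgccgcagCCAATagcgcgggtgcgt
MTHFD2 chr2:74198529-74198558, plus strand: atgcggcagggaCCAATgggtggcggaggg
MTHFD1 chr14:64388323-64388352, plus strand: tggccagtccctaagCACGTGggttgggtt
MTHFD1L chr6:150866346-150866375, plus strand: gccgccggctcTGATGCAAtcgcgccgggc
ASNS chr7:97872458-97872487, minus strand: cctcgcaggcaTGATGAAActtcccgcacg

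Before Dox, SHMT2, MTHFD2 and PSAT1 led the group by either measure of length. As CPM per kilobase of exon (union of exons, GENCODE 44), SHMT2 was the highest in every clone at 0 h. It had 157 ± 3.0 in shIRE1 clone 1, 277 ± 9.4 in shIRE1 clone 3, 182 ± 8.2 in shXBP1 clone 1 and 211 ± 10.9 in shXBP1 clone 18 (mean ± SD, 3 libraries each). PSAT1 was next and MTHFD2 the third in each clone, and the spreads of these 3 genes did not meet. MTHFD1L, ALDH1L2 and PSPH followed in an order that differed between clones; in shXBP1 clone 1, PSPH at 22.8 ± 0.52 and ALDH1L2 at 22.8 ± 1.8 did not differ beyond their spread. PHGDH, which makes the first step, stood lower, at 8.96 ± 0.38 in shIRE1 clone 1 beside MTHFD1 at 8.64 ± 0.36, and those neighbours did not differ beyond their spread there. ASNS was last at 0.0874 ± 0.032 to 0.220 ± 0.023. By coding length in place of exon length, MTHFD2 came first, SHMT2 next and PSAT1 the third in each clone, and ASNS stayed last. MTHFD1L then ranked 8 or 9 of the 10, so that its place depends on the length used.

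**Figure D2:**
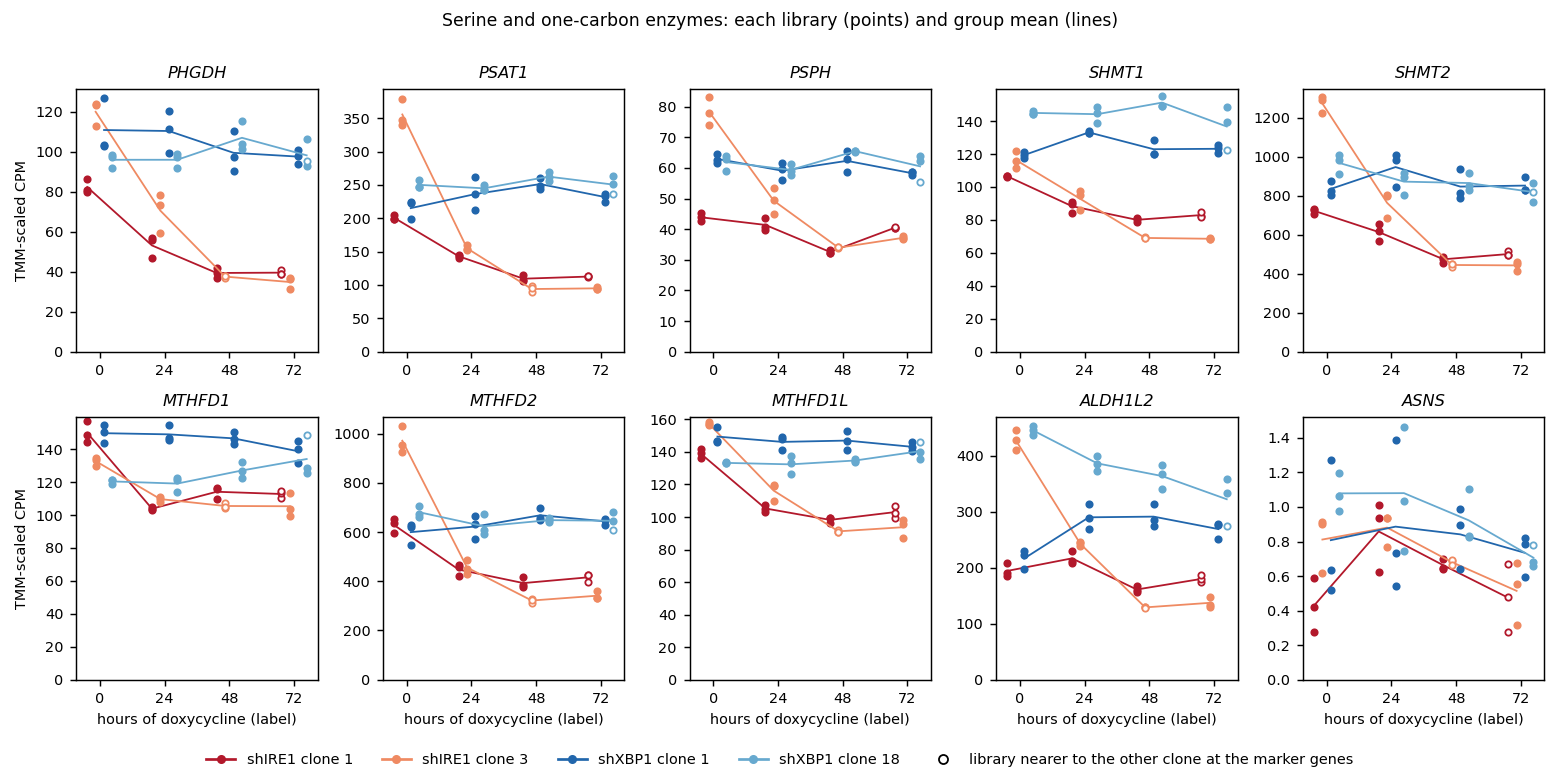
CPM (TMM-scaled) of the 10 enzymes in each of the 48 libraries against hours of Dox, with lines through group means; open symbols are the 7 libraries that stood nearer to another clone at marker genes. Apart from ASNS, the enzymes fell in the libraries of both shIRE1 clones by 48 h and in neither shXBP1 clone as a group, and before Dox shIRE1 clone 3 lay above clone 1 for 8 of those 9 enzymes.

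The first question was which of the enzymes changed after Dox in each clone. Where IRE1 was knocked down, most of them fell. In shIRE1 clone 1, 7 of the 10 were lower at 24 h and 2 were higher, beside 29% of all 17154 genes tested that were lower and 32.4% that were higher. Those higher were ALDH1L2 and ASNS, and each of these calls was lost under an alternative given with the gene. At 48 h 9 of 10 were lower in this clone, beside 31.5% of genes lower and 33.9% higher, with a median log2 fold change of -0.46 for the 10 against 0.03 for all genes. In shIRE1 clone 3, 9 of 10 were lower at 24 h, beside 23.3% of 17204 genes lower and 22.8% higher. At 72 h 9 of 10 were lower in clone 3, beside 30.5% lower and 29.7% higher, with a median of -1.31 for the 10 against 0.02 for all genes. The counts that rest on libraries at odds with their labels were also 9 of 10 lower: clone 1 at 72 h, beside 31.1% lower and 32.5% higher, and clone 3 at 48 h, beside 31.6% lower and 31.6% higher. In clone 1 at 72 h the calls of PSPH and ALDH1L2 were at the threshold (-0.12 ± 0.051 SE, adjusted p = 0.0474, and -0.11 ± 0.047 SE, adjusted p = 0.0465). Both were lost, which left 7, with all 48 libraries in one fit, with only the 6 libraries compared and with the replicate block. PSPH was also lost without any of 5 single libraries and ALDH1L2 without any of 3. With the libraries of clone 1 at 72 h and clone 3 at 48 h left out, the counts in the other comparisons were the same. Calls are adjusted p-values under 0.05 from edgeR's quasi-likelihood test over all genes tested. In bulk RNA, less of an mRNA in each cell and fewer cells with it cannot be told apart.

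Under knockdown of XBP1, few of the enzymes moved. In shXBP1 clone 1, of 16603 genes tested, 13.9%, 16.6% and 16.8% were higher at 24, 48 and 72 h and 12.8%, 15.5% and 16.8% were lower. There 1, 2 and 1 of the 10 enzymes were higher and 0 were lower at any time. In shXBP1 clone 18, of 16860 genes, 1.3%, 3.5% and 5.55% were lower and 0.291%, 2.28% and 4.41% were higher. Of the enzymes, 0 passed at 24 and 48 h by edgeR, where 2 and 3 had an unadjusted p under 0.05 and DESeq2 called 0 and 1, and 2 were lower at 72 h. Without the library that stood nearer to clone 1, the count in clone 18 was 1 of 10 lower at each of the 3 times, namely ALDH1L2. Of all 17171 genes tested in that fit, 821, 2223 and 1300 were called in either direction at 24, 48 and 72 h.

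**Figure D3:**
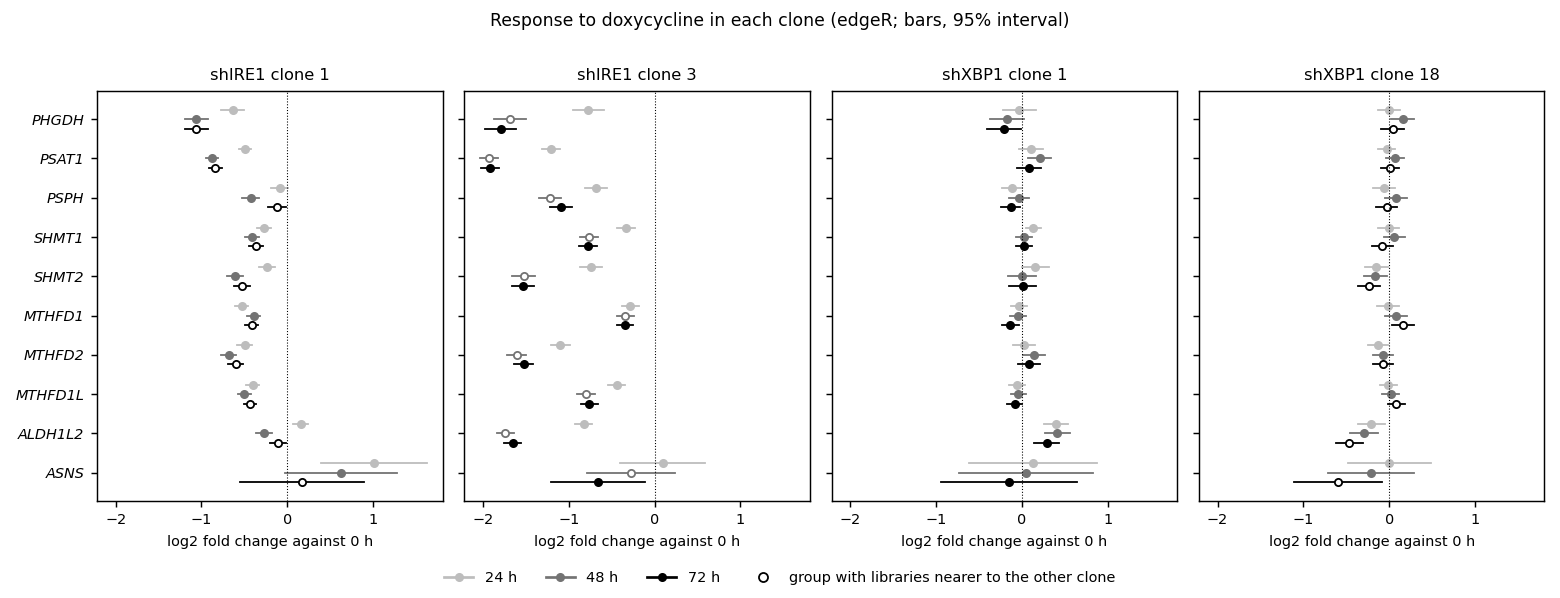
Log2 fold change against 0 h of the same clone (edgeR; bars are 95% intervals) for the 10 enzymes at 24, 48 and 72 h, one panel per clone; open symbols are groups that hold libraries nearer to another clone. In shIRE1 clone 3 the points of PHGDH, PSAT1, SHMT2, MTHFD2 and ALDH1L2 reach between -1.5 and -2 by 72 h, and in the shXBP1 clones most intervals hold 0.

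The genes of all 3 steps of serine synthesis fell where IRE1 was knocked down. PHGDH (chr1:119648411-119744218; positions are those of GENCODE 44 on GRCh38) had CPM values in shIRE1 clone 1 of 79.7, 80.9 and 86.3 at 0 h, 47.0, 56.7 and 55.7 at 24 h, 42.0, 39.2 and 36.9 at 48 h and 40.9, 38.9 and 38.8 at 72 h. Its CPM values in shIRE1 clone 3 were 124, 113 and 124 at 0 h, 59.5, 78.6 and 73.4 at 24 h, 37.8, 37.0 and 37.7 at 48 h and 36.3, 36.9 and 31.3 at 72 h. Every treated library lay below every 0 h library of its clone. The log2 fold change in clone 1 was -0.64 ± 0.067 SE, adjusted p = 1.49e-07 at 24 h and -1.06 ± 0.069 SE, adjusted p = 1.13e-10 at 48 h. Clone 3 had -0.77 ± 0.091 SE, adjusted p = 6e-06 at 24 h and -1.79 ± 0.094 SE, adjusted p = 3.27e-10 at 72 h. In shXBP1 clone 1 PHGDH had 103 to 127 CPM at 0 h and 93.9 to 101 at 72 h, and in clone 18 92.1 to 98.3 and 93.0 to 106; neither response passed the test (clone 1 at 72 h, -0.20 ± 0.10 SE, adjusted p = 0.135).

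PSAT1 (chr9:78297125-78330093), the aminotransferase of the second step, showed the largest fall of the group in shIRE1 clone 3 at 72 h. Its levels in shIRE1 clone 3 in CPM were 379, 347 and 339.9 at 0 h, 159.7, 152 and 153 at 24 h, 89.1, 97.8 and 94.8 at 48 h and 94.0, 94.3 and 96.4 at 72 h. The clone 1 libraries had CPM values of 205, 199 and 199 at 0 h, 143, 145 and 141 at 24 h, 106, 107 and 115 at 48 h and 112, 113 and 113 at 72 h. Both clones separated from 0 h at 24 h already, with no overlap at any time. The log2 fold change was -1.20 ± 0.052 SE, adjusted p = 1.51e-10 at 24 h and -1.92 ± 0.053 SE, adjusted p = 5.06e-13 at 72 h in clone 3. In clone 1 it was -0.49 ± 0.036 SE, adjusted p = 8.71e-10 at 24 h and -0.88 ± 0.037 SE, adjusted p = 1.88e-13 at 48 h. PSAT1 in shXBP1 clone 1 had CPM values of 199, 224 and 223 at 0 h, 261, 212 and 236 at 24 h, 249, 260.2 and 245 at 48 h and 224, 237 and 234 at 72 h. It was called higher there at 48 h (0.21 ± 0.071 SE, adjusted p = 0.0432), a call that DESeq2 did not make and that 24 and 72 h did not share. It was also lost without 0 h replicate 1 or any 48 h replicate (adjusted p = 0.0650 to 0.119). PSAT1 in shXBP1 clone 18 stayed within 237 to 269 CPM over all 12 libraries and did not pass the test.

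PSPH (chr7:56011051-56051604), the phosphatase that completes serine, was the exception in shIRE1 clone 1 at 24 h. Its CPM there ran from 42.7 to 45.1 at 0 h, 39.7 to 43.7 at 24 h, 32.2 to 33.0 at 48 h and 40.3 to 40.6 at 72 h. The 24 h and 0 h libraries overlapped (-0.09 ± 0.050 SE, adjusted p = 0.142), and the fall passed the test at 48 h (-0.43 ± 0.051 SE, adjusted p = 5.65e-07). In clone 3 PSPH ran from 73.9 to 83.3 at 0 h, 45.0 to 53.4 at 24 h, 33.7 to 34.0 at 48 h and 36.6 to 37.9 at 72 h, with no overlap. There it fell by 0.68 at 24 h and 1.09 at 72 h on the log2 scale. In the shXBP1 clones it lay within 56.2 to 65.4 CPM in clone 1 and within 55.3 to 65.6 in clone 18, and passed the test at no time.

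The 2 serine hydroxymethyltransferases both fell with IRE1 knockdown, and at the later times the values were larger for the mitochondrial one, SHMT2. SHMT2 (chr12:57229573-57234935) in shIRE1 clone 3 had CPM values of 1304, 1224 and 1292 at 0 h, 688, 803 and 799 at 24 h, 449, 433 and 452 at 48 h and 461, 451 and 416 at 72 h. In clone 1 the same gene had CPM values of 708, 728 and 734 at 0 h, 568, 619 and 654 at 24 h, 488, 477 and 457 at 48 h and 514, 494 and 494 at 72 h. No treated library reached the 0 h libraries of its clone. The log2 fold change was -0.74 ± 0.065 SE, adjusted p = 2.64e-07 at 24 h and -1.54 ± 0.067 SE, adjusted p = 4.2e-11 at 72 h in clone 3. In clone 1 it was -0.24 ± 0.047 SE, adjusted p = 0.000205 at 24 h and -0.61 ± 0.047 SE, adjusted p = 1.34e-09 at 48 h. SHMT2 in shXBP1 clone 18 had CPM values of 1010.2, 913 and 982 at 0 h, 801, 897 and 919 at 24 h, 851, 829 and 915 at 48 h and 868, 767 and 820.5 at 72 h. It was called lower at 72 h (-0.24 ± 0.068 SE, adjusted p = 0.0440); without the library nearer to clone 1 the value was -0.24 with an adjusted p of 0.0532, and the call was lost. The range of SHMT2 in shXBP1 clone 1 was 804 to 877 CPM at 0 h and 828 to 897 at 72 h, and no response there passed the test.

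SHMT1 (chr17:18327860-18363563), the cytosolic enzyme, moved less. In shIRE1 clone 1 its CPM ran from 106 to 107 at 0 h, 84.5 to 91.1 at 24 h, 78.6 to 81.1 at 48 h and 81.5 to 84.8 at 72 h. Clone 3 had a CPM from 112 to 122 at 0 h, 85.9 to 97.4 at 24 h, 68.9 to 69.3 at 48 h and 68.2 to 69.0 at 72 h. The changes of SHMT1 on the log2 scale were -0.41 ± 0.041 SE, adjusted p = 5.98e-08 at 48 h in clone 1 and -0.78 ± 0.055 SE, adjusted p = 1.06e-08 at 72 h in clone 3. SHMT1 lay within 118 to 134 CPM in shXBP1 clone 1 and 122 to 155 CPM in clone 18, where no response passed the test; the nearest was clone 1 at 24 h (0.13 ± 0.046 SE, adjusted p = 0.0517).

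Among the folate enzymes, MTHFD2 (chr2:74186172-74217565), the mitochondrial dehydrogenase and cyclohydrolase, fell in shIRE1 clone 3 at 72 h by about as much as SHMT2 did. Its libraries in shIRE1 clone 3 had CPM values of 1033, 956 and 926 at 0 h, 485, 431 and 450.3 at 24 h, 313, 329 and 322 at 48 h and 331, 332 and 361 at 72 h. In shIRE1 clone 1 they had CPM values of 651, 638 and 598 at 0 h, 464, 457 and 421 at 24 h, 384, 377 and 416 at 48 h and 398, 426 and 424 at 72 h. All treated libraries were below all 0 h libraries in both clones. On the log2 scale the change was -1.10 ± 0.055 SE, adjusted p = 6.37e-10 at 24 h and -1.52 ± 0.056 SE, adjusted p = 7.52e-12 at 72 h in clone 3. In clone 1 it was -0.49 ± 0.045 SE, adjusted p = 1.7e-08 at 24 h and -0.68 ± 0.045 SE, adjusted p = 1.43e-10 at 48 h. In the shXBP1 clones MTHFD2 ranged over 547 to 698 CPM (clone 1) and 591 to 705 CPM (clone 18), and no response passed the test. Rows of MTHFD2 pseudogenes held 5.35% to 8.63% of the reads assigned to the gene and its pseudogenes together.

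MTHFD1L (chr6:150865679-151101887), which releases formate from mitochondrial formyl-folate, and MTHFD1 (chr14:64388031-64463457), the cytosolic enzyme that joins several of these activities, fell less. The CPM of MTHFD1L in shIRE1 clone 1 ran from 136 to 142 at 0 h, 103 to 107 at 24 h, 96.3 to 99.3 at 48 h and 99.7 to 107 at 72 h. Clone 3 ranged from 156 to 158 at 0 h, 109.8 to 119.6 at 24 h, 90.7 to 92.0 at 48 h and 87.1 to 98.2 at 72 h. Its log2 fold change was -0.50 ± 0.038 SE, adjusted p = 1.15e-09 at 48 h in clone 1 and -0.76 ± 0.053 SE, adjusted p = 8.03e-09 at 72 h in clone 3. The CPM of MTHFD1 ran from 145 to 157 at 0 h, 103 to 105 at 24 h, 110.0 to 117 at 48 h and 111 to 114 at 72 h in clone 1. It ran from 130.1 to 135 at 0 h, 108 to 111 at 24 h, 104 to 108 at 48 h and 99.3 to 113 at 72 h in clone 3. For both genes all treated libraries of these clones lay below those at 0 h. The log2 fold change was -0.53 ± 0.039 SE, adjusted p = 9.7e-10 at 24 h and -0.39 ± 0.039 SE, adjusted p = 5.1e-08 at 48 h in clone 1. Clone 3 showed -0.28 ± 0.049 SE, adjusted p = 0.000239 at 24 h and -0.35 ± 0.049 SE, adjusted p = 1.82e-05 at 72 h. Neither gene passed the test against 0 h in a shXBP1 clone.

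ALDH1L2 (chr12:105019784-105107643), the mitochondrial formyl-folate dehydrogenase, did not move in the same direction in every clone. In shIRE1 clone 3 it had CPM values of 411, 445 and 427 at 0 h, 244, 238 and 245 at 24 h, 129, 130.1 and 127 at 48 h and 133, 130.3 and 148 at 72 h. The values in shIRE1 clone 1 in CPM were 208, 189 and 184 at 0 h, 229, 209 and 211 at 24 h, 157, 159 and 166 at 48 h and 175, 179 and 186 at 72 h. In clone 3 it fell by 0.83 ± 0.051 at 24 h and 1.66 ± 0.052 at 72 h on the log2 scale, with no overlap. In clone 1 it was called higher at 24 h (0.16 ± 0.047 SE, adjusted p = 0.00793) and lower at 48 h (-0.27 ± 0.047 SE, adjusted p = 6.06e-05). The call at 24 h was lost with all 48 libraries in one fit (0.16, adjusted p = 0.0575).

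ALDH1L2 in shXBP1 clone 1 had CPM values of 197, 222 and 229 at 0 h, 313, 269 and 288 at 24 h, 274, 314 and 284 at 48 h and 251, 277 and 278 at 72 h. It was higher than at 0 h in every treated library. The log2 fold change was 0.40 ± 0.074 SE, adjusted p = 0.00237 at 24 h, 0.41 ± 0.074 SE, adjusted p = 0.00171 at 48 h and 0.29 ± 0.074 SE, adjusted p = 0.0107 at 72 h. In shXBP1 clone 18 its libraries had CPM values of 437, 453 and 446 at 0 h, 400.0, 373 and 385 at 24 h, 383, 366 and 341 at 48 h and 333, 359 and 274 at 72 h. It was called lower at 72 h (-0.46 ± 0.082 SE, adjusted p = 0.00419). Without the library nearer to clone 1 it was called lower at 24, 48 and 72 h, at -0.21, -0.29 and -0.36 with adjusted p-values of 0.0342, 0.00200 and 0.00127.

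ASNS (chr7:97851677-97872542) was close to the floor of the assay, at 7 to 55 counts in any library. In shIRE1 clone 1 it had 11, 9 and 18 counts at 0 h, 32, 35 and 20 at 24 h and 21, 24 and 18 at 48 h. The rise at 24 h passed the test (1.01 ± 0.31 SE, adjusted p = 0.00947) and did not without 0 h replicate 2 (0.75, adjusted p = 0.0681). In shIRE1 clone 3 ASNS had 23, 14 and 25 counts at 0 h and 18, 22 and 9 at 72 h, with overlap, and the difference did not pass (-0.66 ± 0.28 SE, adjusted p = 0.0529). The level of ASNS is uncertain. The pseudogene ASNSP1 alone had 24 to 141 counts, and rows of ASNS pseudogenes held 40.2% to 87.8% of the reads of the gene and its pseudogenes. Of the exon bases of ASNS 49.3% lie also in a gene of the same strand, AC079781.5, which had 0 to 10 counts.

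Later times were compared with earlier ones to see whether the levels went on falling. From 24 to 48 h most of the enzymes fell again in the shIRE1 clones, and from 48 to 72 h few passed the test. In shIRE1 clone 1, 7 of the 10 enzymes were lower at 48 h than at 24 h and 1 was higher, beside 14.3% of all genes lower and 16% higher. PHGDH (-0.43 ± 0.069), ALDH1L2 (-0.42 ± 0.047) and PSAT1 (-0.38 ± 0.037) led on the log2 scale, and MTHFD1 was the gene that went up (0.14 ± 0.039 SE, adjusted p = 0.0105). With libraries labelled shIRE1 clone 3, 48 h, which carry the marks of clone 1, 8 of 10 were lower than at 24 h in clone 3, beside 17.4% of genes. Between 48 and 72 h, PSPH alone was called in clone 1 (0.31 ± 0.052 SE, adjusted p = 0.00276), beside 0.869% of genes in any direction. The count in clone 3 was 0, beside 0.936%, where 0 enzymes had an unadjusted p under 0.05 and DESeq2 called 0; both comparisons set libraries of different clone marks against each other. In the shXBP1 clones 0 enzymes passed from 24 to 48 h or from 48 to 72 h, by edgeR or DESeq2; the share of all genes called was 0% and 0.012% in clone 1 and 0% and 0% in clone 18, with 632 to 1457 genes at an unadjusted p under 0.05.

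Whether the enzymes responded differently to the 2 knockdowns was tested directly, as the mean response of the shIRE1 clones minus that of the shXBP1 clones. Each mean is over 2 clones, and the SE and p-values rest on the spread between libraries of one clone and time. They do not measure the spread between clones of one shRNA. At each time 9 of the 10 were lower in the shIRE1 clones, all but ASNS, beside 19.7%, 28% and 27.4% of the 18445 genes tested, at 24, 48 and 72 h in turn. As labelled, PSAT1 differed most, by -0.90 ± 0.054 SE, adjusted p = 2.7e-17 at 24 h and -1.55 ± 0.054 SE, adjusted p = 6.78e-25 at 48 h on the log2 scale. PHGDH differed by -0.70 ± 0.088 SE, adjusted p = 2.22e-08 at 24 h and -1.37 ± 0.089 SE, adjusted p = 1.47e-16 at 48 h. As labelled, MTHFD1 differed least among the 9 at 48 h (-0.39 ± 0.050 SE, adjusted p = 1.98e-08). For ASNS the 95% interval of the difference at 24 h was -0.14 to 1.10, which does not show that the responses were alike. At 48 and 72 h one of the shIRE1 clones is represented by libraries with the marks of the other. With those libraries left out, 9 of 10 were again lower at each time, from clone 1 alone at 48 h and clone 3 alone at 72 h. Of all 18299 genes tested in that fit, 6788, 8561 and 9579 were called in either direction at 24, 48 and 72 h. In shIRE1 clone 1 alone PSAT1 and PHGDH differed by less at 48 h, and their order depended on the shXBP1 clone. Against shXBP1 clones 1 and 18 in turn, PSAT1 differed by -1.10 and -0.95 and PHGDH by -0.91 and -1.22. MTHFD1 differed by -0.36 and -0.47, and ALDH1L2 by -0.70 and 0.02.

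By single pairs of clones, 7 to 9 of the 10 enzymes passed in either direction. The share of all genes in single pairs is not given here. For the mean over clones 38.7%, 56.9% and 55.3% of genes passed in either direction at 24, 48 and 72 h. Among the enzymes called in the mean over clones, ALDH1L2 and PSPH went against it in some pairs. Against shXBP1 clone 18, ALDH1L2 in shIRE1 clone 1 was higher at 24 h (0.36, adjusted p = 0.00315). Against shXBP1 clone 1 the difference in PSPH at 24 h was 0.0059 (adjusted p = 0.971).

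**Figure D4:**
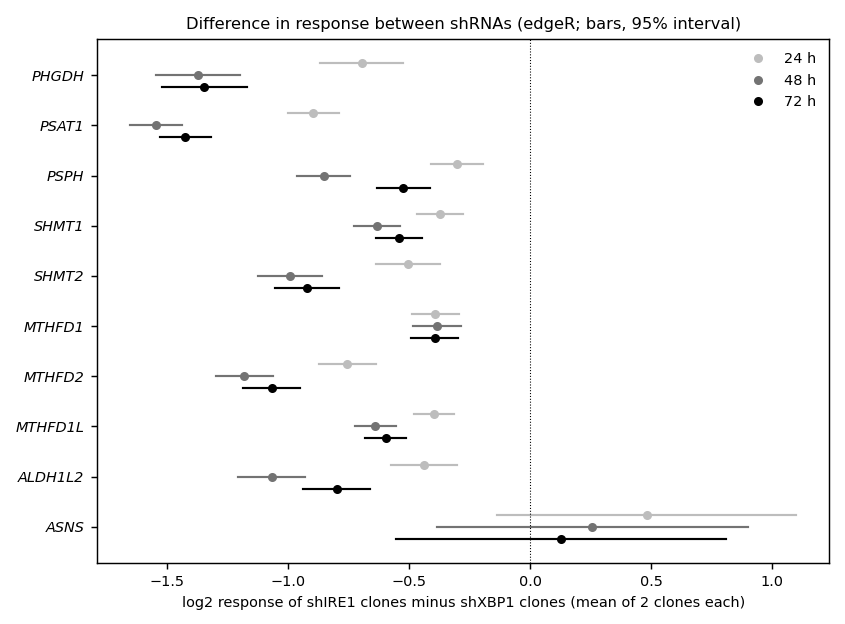
Log2 response of the shIRE1 clones minus that of the shXBP1 clones (mean of 2 clones each; edgeR, bars are 95% intervals) for the 10 enzymes at 24, 48 and 72 h. The intervals of 9 enzymes lie below 0 at each time, and those of ASNS hold 0. The bars reflect the spread between libraries within clones, not that between clones.

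The 2 shIRE1 clones differed in how far the enzymes fell. At 24 h, a time used to choose the marker genes, 5 of the 10 had a higher response (a smaller fall, or a rise) in clone 1 than in clone 3, beside 15.5% of genes. The response of 1 was lower, beside 12.7%. With any single library of these groups left out, 6 in all were still called. The difference was 0.98 ± 0.099 SE, adjusted p = 7.02e-10 for ALDH1L2, 0.71 ± 0.076 SE, adjusted p = 2.51e-09 for PSAT1 and 0.60 ± 0.085 SE, adjusted p = 6.73e-07 for MTHFD2, with PSPH (0.59) and SHMT2 (0.50) as the others. MTHFD1 was the gene that fell further in clone 1 (-0.25 ± 0.071 SE, adjusted p = 0.00599). Its call was lost with no filter on low counts (-0.26, adjusted p = 0.0785 by edgeR). For PHGDH the difference at 24 h was 0.13, with an interval of -0.11 to 0.38. As labelled, 8 of 10 were higher in clone 1 at 48 h, beside 17.3% of genes, and 8 at 72 h, beside 15.5%. Each of these sets libraries with the same clone marks against different 0 h libraries, and no value without them can be given. Between the shXBP1 clones 2, 2 and 3 of the 10 differed at 24, 48 and 72 h, beside 17.1%, 24.1% and 24.6% of genes. Only ALDH1L2 was called in each fit tried; MTHFD2 at 48 h (0.23) was lost with DESeq2 (adjusted p = 0.0703) and in most other fits, and MTHFD1 at 72 h (-0.26) with no filter on low counts (0.0726). SHMT2 at 24 h (0.33) and at 72 h (0.27) was lost without some single libraries, at adjusted p-values of up to 0.0688 and 0.159. ALDH1L2 was among them at each time (0.63 ± 0.099 SE, adjusted p = 1.26e-05 at 24 h). Without the library nearer to clone 1, 2 of 10 differed at 72 h, beside 3719 of 18786 genes.

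The clones also differed before Dox, on which each response rests. All 10 enzymes differed between shIRE1 clones 1 and 3 at 0 h: 9 were lower in clone 1, beside 21.4% of genes, and MTHFD1 was higher, beside 19.2%. The calls of SHMT1 and ASNS were not stable: DESeq2 called 9 of the 10, without SHMT1 (adjusted p = 0.0623). SHMT1 was lost without any single 0 h library but clone 3 replicate 2 (adjusted p = 0.0680 to 0.168), and ASNS without clone 1 replicate 1 or 2 or clone 3 replicate 1 or 3 (0.0727 to 0.192), so that 8 to 10 were called. ALDH1L2 was at 194 ± 12.9 CPM in clone 1 and 428 ± 17.4 in clone 3 (mean ± SD), and PSPH at 43.9 ± 1.2 and 78.4 ± 4.7. SHMT2 stood at 723 ± 13.6 and 1273 ± 43.0 CPM. In the other pairs 5 differed between shIRE1 clone 1 and shXBP1 clone 1 (32.3% of genes), 8 between shIRE1 clone 1 and shXBP1 clone 18 (52.7%). There were 6 between shIRE1 clone 3 and shXBP1 clone 1 (52.2%), 8 between shIRE1 clone 3 and shXBP1 clone 18 (39.1%) and 8 between the shXBP1 clones (51.3%). With single 0 h libraries left out, these 5 counts were 5 to 6, 7 to 8, 6 throughout, 7 to 8 and 6 to 7 in turn. DESeq2 called 7 between shIRE1 clone 1 and shXBP1 clone 18. The 2 shIRE1 clones lay nearer to each other after 24 h of Dox than before it for PSAT1, PSPH, SHMT2, MTHFD2 and ALDH1L2, among others. PSAT1 was at 201 ± 3.3 and 356 ± 21.0 CPM in shIRE1 clones 1 and 3 at 0 h and at 143 ± 2.2 and 155 ± 4.2 at 24 h. PSPH was at 41.4 ± 2.0 and 49.3 ± 4.2 at 24 h. In CPM per kilobase of exon, SHMT2 went from 157 and 277 at 0 h to 134 and 166 at 24 h in these clones. MTHFD2 went from 55.0 and 84.9 to 39.1 and 39.8, and ALDH1L2 from 20.4 and 45.0 to 22.8 and 25.5. ALDH1L2 at 0 h was about as high in shXBP1 clone 18 (445 ± 7.8) as in shIRE1 clone 3, a pair whose difference of -0.06 did not pass the test (interval -0.20 to 0.08).

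The balance between mitochondrial and cytosolic enzymes was read as the log2 ratio of the reads of 2 genes in the same library, given without a test. It moved in clones of both constructs. SHMT2 to SHMT1 was 3.45 ± 0.032 (SD) in shIRE1 clone 3 at 0 h, 3.04 ± 0.036 at 24 h and 2.69 ± 0.072 at 72 h. In clone 1 it was 2.76 ± 0.029, 2.80 ± 0.046 and 2.57 ± 0.030 at 0, 24 and 48 h. MTHFD2 to MTHFD1 went from 2.87 ± 0.073 at 0 h to 1.70 ± 0.039 at 72 h in clone 3 and from 2.07 ± 0.058 to 1.78 ± 0.079 at 48 h in clone 1. At 24 h in clone 1 both ratios overlapped those at 0 h, while in clone 3 both were below. MTHFD1L to MTHFD1 in clone 3 was 0.24 ± 0.034 at 0 h and -0.17 ± 0.049 at 72 h. In shXBP1 clone 1 the ratio of MTHFD2 to MTHFD1 was 2.0 ± 0.064 at 0 h and 2.21 ± 0.047 at 72 h, without overlap. Both ratios were lower with Dox in shXBP1 clone 18. SHMT2 to SHMT1 went there from 2.74 ± 0.065 without Dox to 2.59 ± 0.059 after 24 h and 2.52 ± 0.087 after 48 h, without overlap with 0 h. MTHFD2 to MTHFD1 went from 2.50 ± 0.062 to 2.35 ± 0.067 after 48 h, also without overlap.

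**Figure D5:**
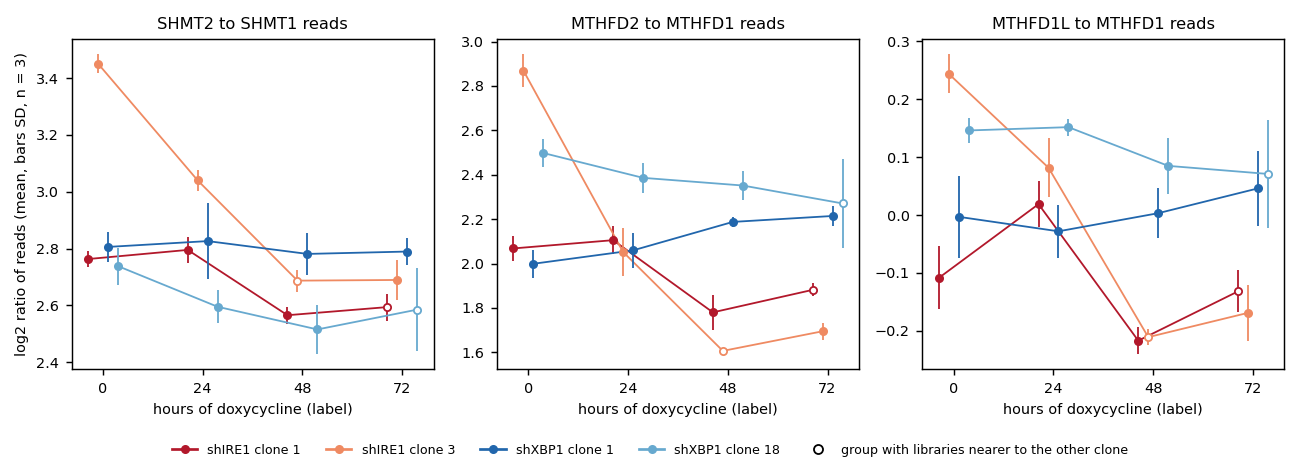
Log2 ratio of reads (mean, bars SD, 3 libraries) of SHMT2 to SHMT1, MTHFD2 to MTHFD1 and MTHFD1L to MTHFD1 against hours of Dox; open symbols are groups that hold libraries nearer to another clone. In shIRE1 clone 3 all 3 ratios are lower at 24 h than at 0 h, and in shIRE1 clone 1 none is.

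The other genes of the pathway moved both ways. Of 34 other genes of serine, glycine and folate metabolism, 13 of 30 tested were lower and 11 higher in shIRE1 clone 1 at 48 h (median -0.08), where 31.5% of all genes were lower and 33.9% higher. The counts were 16 of 31 lower and 8 higher in clone 3 at 72 h (median -0.34), beside 30.5% and 29.7% of all genes. GGH, which trims the glutamate tail of folates, fell by 1.58 ± 0.062 in clone 1 at 48 h and by 2.06 ± 0.082 in clone 3 at 72 h. CTH, the lyase that makes cysteine from cystathionine, had a log2 fold change of -3.39 ± 0.10 SE in clone 3 at 72 h and -0.78 ± 0.084 SE in clone 1 at 48 h. It was higher in shXBP1 clone 1 (0.96 ± 0.10 SE, adjusted p = 4.06e-05 at 72 h). SDSL, a serine dehydratase-like gene, rose by 1.98 ± 0.18 in clone 1 at 48 h and by 1.62 ± 0.19 in clone 3 at 72 h. In shXBP1 clone 18 at 72 h, as labelled, 3 of 31 were lower and 0 higher, beside 5.55% and 4.41% of all genes.

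Genes of the ATF4 and amino acid response were mostly lower in shIRE1 clone 3. In clone 3, 18 of 20 tested were lower and 1 higher at 72 h (median -1.29), beside 30.5% of all genes lower. In clone 1 12 of 20 were lower and 5 higher at 48 h (median -0.23), beside 31.5% lower and 33.9% higher. ATF4 itself was at 192 to 199.7 CPM in clone 1 at 0 h and 130.2 to 136 at 48 h (-0.56 ± 0.046 SE, adjusted p = 3.39e-09). In clone 3 it was at 279.9 to 322 at 0 h and 119.7 to 120.1 at 72 h (-1.31 ± 0.057 SE, adjusted p = 4.58e-11). It was also called lower in shXBP1 clone 18 at 72 h (-0.24 ± 0.057 SE, adjusted p = 0.0215), a value that includes the library nearer to clone 1; of the enzymes, ALDH1L2 alone was called there both with and without that library. SLC7A11, the cystine transporter, fell by 2.59 in clone 3 and 1.46 in clone 1, and SLC1A5, the glutamine transporter, by 1.79 and 1.17. CHAC1, which degrades glutathione, was higher in clone 1 at 24 h (0.41 ± 0.11 SE, adjusted p = 0.00325), and lower in clone 3 (-2.00 ± 0.12 SE, adjusted p = 4.81e-09). Of 20 cytosolic aminoacyl-tRNA synthetases, which load amino acids on tRNA, 12 were lower and 3 higher in clone 1 at 48 h and 14 were lower and 4 higher in clone 3 at 72 h, beside the same 31.5% and 30.5% of all genes lower; GARS1, for glycine, fell by 0.93 and 1.60.

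Proliferation genes were lower in the shIRE1 clones too, but with another course. TYMS is both on this list and on that of the folate genes. All 18 of the list were lower in clone 1 at 48 h and in clone 3 at 72 h, with log2 fold changes of -1.78 and -2.24 for the cyclin-dependent kinase CDK1. Their summed level in clone 1 was 6230 to 6520 CPM at 0 h, 2160 to 2190 at 24 h and 2740 to 2860 at 48 h, so that it was lowest at 24 h, while 7 of the 10 enzymes fell from 24 to 48 h. In clone 3 the sum was 4650 to 4950 at 0 h, 2150 to 2250 at 24 h and 2150 to 2340 at 72 h. The median log2 fold change of the 10 enzymes there was -0.71 at 24 h and -1.31 at 72 h. Of the 18, in shXBP1 clone 1 15 were lower at 72 h, with a sum of 6700 to 6750 CPM at 0 h and 5240 to 5430 at 72 h, while 0 of the 10 enzymes were called lower there. In shXBP1 clone 18, 0 were lower and 4 higher at 72 h, as labelled. At that time 5 of 19 genes of the ATF4 list were lower and 4 higher in shXBP1 clone 1, and 11 lower and 0 higher in clone 18, while 4 and 0 of the synthetases were lower. Of all genes 16.8% were lower and 16.8% higher in clone 1 and 5.55% lower in clone 18, whose counts include the library nearer to clone 1. IRF4, a transcription factor of plasma cells, was at 1269.8 to 1362 CPM in clone 1 at 0 h and 545 to 605 at 48 h. It was at 1384 to 1448 and 319.8 to 359 at 0 and 72 h in clone 3. Of the 10 plasma cell markers, 8 were lower and 1 higher in clone 1 at 48 h (median -0.72), and 10 were lower in clone 3 at 72 h (median -1.10), beside 31.5% and 30.5% of all genes lower. The shXBP1 clone 18 libraries at 72 h, as labelled, had 6 of these markers lower (median -0.50), and those of shXBP1 clone 1 had 4 lower and 4 higher. The part of proliferation, plasma cell markers, ATF4 or IRF4 in the fall of the enzymes was not tested.

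Last, the genes whose responses were most like those of each enzyme were sought by Pearson's r over the 12 group responses, among 12003 genes with a mean log2 CPM above 1. These points share 4 sets of 0 h libraries, so that r is a description. Among the 36 pairs of the 9 enzymes without ASNS, r ran from 0.282 (MTHFD1 with ALDH1L2) to 0.994 (PSAT1 with MTHFD2), with a median of 0.911. Outside the group PHGDH was most like SLC1A5 (r = 0.9954) and NEK3, PSAT1 like ZCCHC8 and GNE, PSPH like PDE6D and ARPC2, and SHMT1 like DPY19L1 and SCD. SHMT2 was most like SEC62 and the methionyl-tRNA synthetase MARS (r = 0.992). MTHFD1 was most like HNRNPF and CENPO, MTHFD2 like NNT-AS1 and FAM107B, MTHFD1L like RAB3IP and ANP32B, ALDH1L2 like AGK and AC007388.1, and ASNS like IFT27 and TMEM8B (r = 0.9392 and 0.934). Without the 6 shIRE1 libraries at odds with their labels, 10 responses were left, and both genes were the same for SHMT2, MTHFD1 and MTHFD2, neither was for MTHFD1L and ASNS, and 1 of the 2 was for the others.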

How the data were processed

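RNA was read from 48 libraries of AMO1 clones (stranded poly(A) libraries, single-end reads of 50 bases). Raw counts for each gene and library were deposited by the authors, as was a second table of log2 CPM. Per the labels, GSNAP (2013-10-10), R 4.1.3, edgeR 3.32.1 and limma 3.46.0 were used, and both GRCh37 and hg19 are named as builds. Of the 58302 gene IDs, 98.7% were in GENCODE 44, whose GRCh38 positions and lengths are given here.

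The counts were tested with edgeR 4.0.16 in R 4.3.3 (filterByExpr with a minimum count of 10 and total of 15, TMM, quasi-likelihood), over the 12 libraries of a clone against its 0 h, and over all 48 for differences between clones and shRNAs. P-values were adjusted by Benjamini-Hochberg over all genes tested, at 0.05, and intervals are 95%. In simulated counts for shIRE1 clone 1 at 48 h, 200 of 16820 genes were changed. There 54 of 100 changes of log2 0.5 and 83 of 100 of log2 1 were recovered. The real comparison called 65.4% of genes in either direction, so that its adjustment is less strict and these shares need not hold for it. Depth was 19177855 to 40767202 counts, which limits the precision for genes of few counts.

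Named genes were the 10 enzymes, the 2 genes most like each, up to 3 of each list with the largest change in both shIRE1 clones at 72 h, ERN1, XBP1, IRF4 and ATF4. The members and lists were chosen with earlier results of these data known. Alternatives were DESeq2 1.42.0, limma 3.58.1 on the deposited log2 values, no filter, other sets of libraries, a replicate block, and leaving out libraries; leaving out those labelled shIRE1 clone 1, 72 h and clone 3, 48 h together was chosen after seeing the data. Groups were those of the labels. Protein sequences were not used here.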

Additional observations from a re-analysis of the deposited data

Results flagged for a closer look

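Responses to Dox of the same enzyme differed between groups of clones in the results below, each by a test of the difference itself (edgeR, interaction of group and time, adjusted p under 0.05). All values are differences of log2 fold changes. The mean response of the shIRE1 clones minus that of the shXBP1 clones was lower for every enzyme but ASNS. The spread between clones of one shRNA did not enter that test. The values at 48 and 72 h include shIRE1 libraries at odds with their labels. PHGDH differed by -0.70, -1.37 and -1.35 at 24, 48 and 72 h. PSAT1 differed by -0.90, -1.55 and -1.43 at 24, 48 and 72 h. PSPH differed by -0.30, -0.85 and -0.52 at 24, 48 and 72 h. SHMT1 differed by -0.37, -0.63 and -0.54 at 24, 48 and 72 h. SHMT2 differed by -0.50, -0.99 and -0.92 at 24, 48 and 72 h. MTHFD1 differed by -0.39, -0.39 and -0.40 at 24, 48 and 72 h. MTHFD2 differed by -0.76, -1.18 and -1.07 at 24, 48 and 72 h. MTHFD1L differed by -0.40, -0.64 and -0.60 at 24, 48 and 72 h. ALDH1L2 differed by -0.44, -1.07 and -0.80 at 24, 48 and 72 h.

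Between the shIRE1 clones, the response of clone 1 minus that of clone 3 differed as follows. The values at 48 and 72 h rest on libraries that carry the marks of the other clone. For PSAT1 the difference was 0.71, 1.04 and 1.07 at 24, 48 and 72 h. For PSPH the difference was 0.59, 0.78 and 0.96 at 24, 48 and 72 h. For SHMT2 the difference was 0.50, 0.91 and 1.00 at 24, 48 and 72 h. For MTHFD1 the difference was -0.25 at 24 h. For MTHFD2 the difference was 0.60, 0.92 and 0.91 at 24, 48 and 72 h. For ALDH1L2 the difference was 0.98, 1.46 and 1.53 at 24, 48 and 72 h. For PHGDH the difference was 0.61 and 0.72 at 48 and 72 h. For SHMT1 the difference was 0.34 and 0.40 at 48 and 72 h. For MTHFD1L the difference was 0.28 and 0.31 at 48 and 72 h. With no filter on low counts, the calls of MTHFD1 at 24 h and of MTHFD1L at 48 h were lost (adjusted p = 0.0785 and 0.0665 by edgeR).

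Between the shXBP1 clones, clone 1 minus clone 18, SHMT2 differed by 0.33 and 0.27 at 24 and 72 h, ALDH1L2 differed by 0.63, 0.72 and 0.78 at 24, 48 and 72 h, MTHFD2 differed by 0.23 at 48 h and MTHFD1 differed by -0.26 at 72 h. Those at 72 h include the library labelled clone 18 that was nearer to clone 1. The calls of MTHFD2, MTHFD1 and SHMT2 in this pair were each lost under at least 1 alternative: MTHFD2 at 48 h with RLE size factors, no filter, DESeq2, limma, the replicate block and most single libraries left out, MTHFD1 at 72 h with no filter, and SHMT2 without some single libraries.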

How the results depend on the processing

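Of 4890 values of single enzymes under alternatives, 4738 kept their side of the threshold, 103 lost the call and 45 gained one. A further 4 changed sign with a call in the main or the alternative fit. Changes of sign without a call in either fit are held among the 4738. ASNS at 48 h, for instance, was 0.26 in the mean over clones and -0.33 for shIRE1 clone 3 minus shXBP1 clone 1. Of 489 counts of enzymes called, 38 moved by over 1.5 times, each of them in a comparison of shXBP1 clones. The 4 changes of sign came from single pairs of clones in place of the mean over clones: PSPH at 24 h, shIRE1 clone 1 minus shXBP1 clone 1, 0.0059, and ALDH1L2, shIRE1 clone 1 minus shXBP1 clone 18, 0.36 at 24 h, 0.023 at 48 h and 0.36 at 72 h. In shXBP1 clone 18 the count at 48 h was 1 in place of 0 with no filter on low counts, with DESeq2 and with all 48 libraries in one fit, and 2 with only the 6 libraries compared. The last of these gave 1 in place of 0 at 24 h and 1 in place of 2 at 72 h. In shXBP1 clone 1 all 48 libraries in one fit gave 4 in place of 1 at 24 h, and DESeq2 gave 1 in place of 2 at 48 h. Between the shXBP1 clones limma on the deposited log2 table gave 1 in place of 2 at 48 h. The cause of these was not tested.

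With single libraries left out, the count ran from 1 to 3 at 24 h, 1 to 2 at 48 h and 1 to 2 at 72 h in shXBP1 clone 1, from 0 to 1, 0 to 1 and 1 to 3 in shXBP1 clone 18, and from 1 to 2 at 24 h and 1 to 3 at 48 h between them. In clone 1 the libraries were 24 h replicates 1 and 2, 0 h replicate 1 and each 48 h replicate, and in clone 18 72 h replicate 3 for 24 and 48 h, and for 72 h also each 0 h replicate and 72 h replicate 2. In the shIRE1 clones the count against 0 h ran from 7 to 10, and the difference between shRNAs stayed at 9 at each time.

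Replicate numbers are shared between time points, but did not pair the libraries: the deviations of libraries with the same number correlated with a mean r of -0.0342 to -0.00746 within the clones, and 1 to 4 of 12 libraries correlated best with their own number. With the replicate block, the count was 1 in place of 2 in shXBP1 clone 1 at 48 h and in shXBP1 clone 18 at 72 h, 1 in place of 2 between the shXBP1 clones at 48 h, and 7 in place of 9 in shIRE1 clone 1 at 72 h, where PSPH and ALDH1L2 were lost. ASNS, at 7 to 55 counts, is the enzyme that depth limits.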
